A study of Homo sapiens with 3 samples.

Results

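The response of Hep3B, an established human liver cancer line, to low oxygen was described across all genes by comparing a library of cells kept at 1% oxygen (hypoxia) with a library of cells kept at 20% oxygen (normoxia). Both were wild-type cells in serum-supplemented DMEM, and the hypoxic cells stood in a modular chamber flushed with the low-oxygen gas mixture. These are 2 of the 3 libraries of the series. The third, from hypoxic cells given sodium oxamate, an inhibitor of lactate dehydrogenase, is shown beside them as a further value. It enters the scaling of the libraries but no call of higher or lower genes. The design text gives 48 hours after naming all conditions and does not say whether that time holds for each. Of 61533 genes listed, 13554 had at least 50 fragments in the normoxia or the hypoxia library and are called measured.

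Cells read oxygen through prolyl hydroxylases that mark the alpha subunits of the hypoxia-inducible factors (HIF) for destruction. When oxygen is scarce these subunits persist, pair with ARNT and bind DNA at a short core motif near their target genes. Liver cells are known to answer with more glycolysis, with secreted factors that act on vessels and on red cell formation, and with less mitochondrial and biosynthetic work. Known HIF targets and cholesterol genes are not surveyed as lists of their own in what follows. Single HIF targets, such as LDHA, EPO and CA9, still appear among the named genes.

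The libraries held 27412147 fragments in normoxia and 26309340 in hypoxia, and 24566 and 27462 genes had at least 1 fragment. There was 1 library per condition and nothing says how many cultures went into each, so the differences are without a replicate check and carry no p-values. Genes are called higher or lower by size alone: scaled fragments had to differ 2-fold or more, and the larger library had to hold 50 fragments. A gene with fewer than 50 fragments in normoxia is measured only through the hypoxia library, and can be higher or neither but not lower. The reverse holds for genes with fewer than 50 fragments in hypoxia. The lists below include such genes, among them ITGA10, SEMA5B, SERPINE2 and ADAM28. Ranges in brackets after a fold are 95% exact conditional binomial intervals, which cover counting error only. By this rule 1468 measured genes were higher in hypoxia (10.8%) and 1094 were lower (8.07%). Among the 11847 protein-coding genes the counts were 960 higher (8.1%) and 1010 lower (8.53%), with a median log2 ratio of -0.16, and the lists below are to be read against these shares. Of the genes counted either way 57.3% were higher, and 70.3% when the libraries were scaled by total fragments, which moved the median log2 ratio of measured genes from -0.11 to 0.04.

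**Figure D1:**
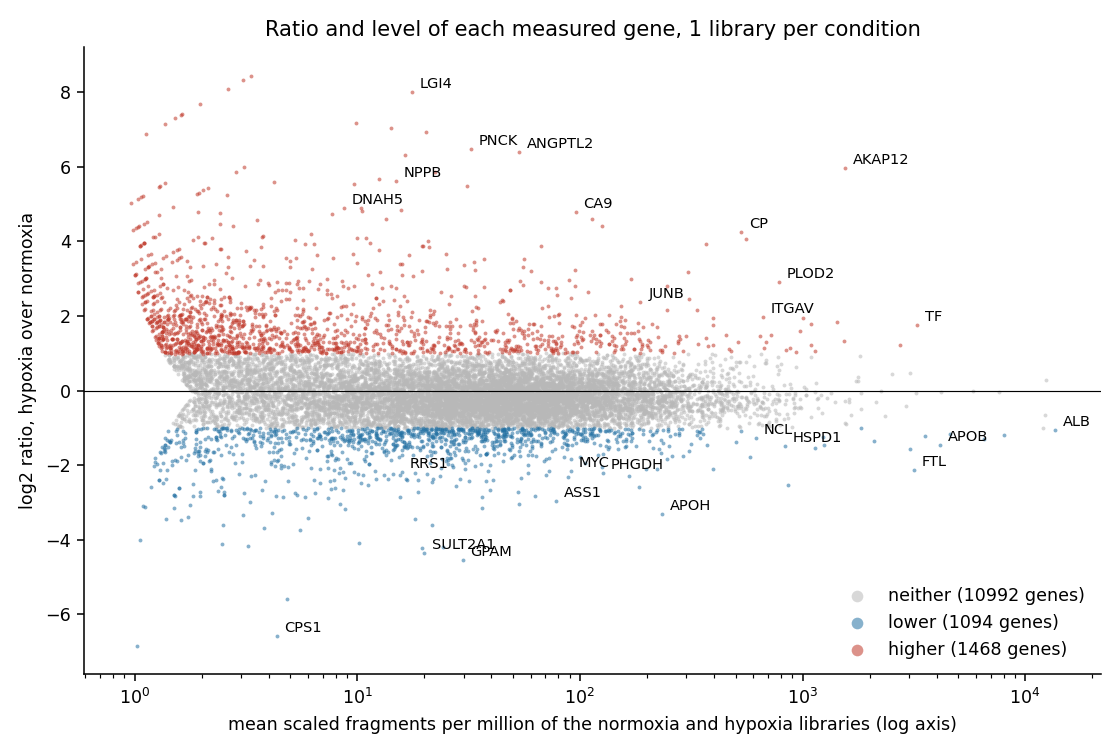
Each point is a measured gene, placed by its mean level in the normoxia and hypoxia libraries (CPM, scaled fragments relative to library size, log axis) and its log2 ratio of hypoxia over normoxia. The 1468 higher genes (red) reach larger ratios than the 1094 lower genes (blue), and AKAP12 combines a large ratio with a high level.

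Some of the strongest differences in hypoxia were in genes close to silent at 20% oxygen. The adhesion receptor gene ADGRF2 (hg38, chromosome 6) had 5 fragments in normoxia, 778 in hypoxia and 1232 in the oxamate library (the order used for all triplets below), and was 145-fold higher in hypoxia (62.0 to 449). Its family member ADGRF4, also on chromosome 6, had 0, 185 and 444 fragments. Set against a floor of 3 fragments in normoxia it was 57.6-fold higher, a value that depends on that floor. PNCK, a calcium/calmodulin-dependent kinase gene on chromosome X, had 18, 1766 and 719 fragments and was 91.7-fold higher (57.8 to 155). The troponin gene TNNI2 had 2, 170 and 172 fragments, a ratio of 79.4 with a wide interval (21.7 to 661). At the other end, SCGN, which encodes the calcium-binding protein secretagogin, had 245, 5 and 8 fragments and was 52.4-fold lower (22.2 to 163). SULT2A1, a steroid sulfotransferase gene of the liver, had 984, 51 and 26 fragments and was 20.6-fold lower (15.6 to 27.9). PRLR, for the receptor of prolactin, had 1037, 91 and 40 fragments and was 12.2-fold lower (9.83 to 15.3), and DDC, for aromatic amino acid decarboxylase, had 861, 84 and 29 and was 11-fold lower (8.76 to 13.9). For SCGN, SULT2A1, PRLR and DDC both low-oxygen libraries lay below the normoxia library.

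By the difference in CPM, the 10 genes with the largest gains in hypoxia were of mixed function: AKAP12, APP, DSP, FN1, LDHA, MT-RNR2, PKM, PLIN2, PLOD2 and TF. Those of glycolysis were LDHA, for lactate dehydrogenase A, with 12544, 46682 and 48618 fragments and a 3.48-fold higher value (3.41 to 3.55), and PKM, for pyruvate kinase, with 22729, 60782 and 60064 and a 2.50-fold higher value (2.46 to 2.54). MT-RNR2, the large ribosomal RNA of mitochondria, had 288350, 377015 and 417170 fragments and stood at 1.22-fold higher, short of the rule. The fibronectin gene FN1, for a matrix glycoprotein, stood at 96.2 FPKM in normoxia, 221 in hypoxia and 243 with oxamate. Its fragments were 2.32-fold higher in hypoxia (2.29 to 2.35), which fell to under the 2-fold rule when the trend of ratios with gene length was removed. DSP, for the desmosome protein desmoplakin, stood at 47.3, 166 and 197 FPKM and was 3.55-fold higher (3.49 to 3.61). PLIN2, which coats lipid droplets, stood at 82.7, 317 and 229 FPKM and was 3.88-fold higher (3.80 to 3.96). The amyloid precursor protein gene APP had 32365, 65571 and 86118 fragments and stood at 1.89-fold higher, short of the rule here and past it under scaling by total fragments. The largest losses were of albumin, FTL, APOB and 7 transcripts of the mitochondrial chromosome. APOB, for the structural protein of very-low-density lipoprotein, stood at 413, 148 and 36.7 FPKM and was 2.75-fold lower (2.73 to 2.78).

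Ligands of the transforming growth factor beta family and their binding proteins, which act between cells through serine/threonine kinase receptors, included several higher activin and inhibin subunits. Counting 24 measured genes, 7 were higher, 1 was lower and 16 neither, and the median log2 ratio was 0.36. INHBB, which encodes the beta B subunit of activin and inhibin, had 356 normoxia, 2691 hypoxia and 2257 oxamate fragments, and was 7.06-fold higher (6.32 to 7.91). INHA, the inhibin alpha subunit gene, had 21, 253 and 849 fragments and was 11.3-fold higher (7.21 to 18.5). INHBE, a liver-enriched activin subunit gene, had 3078, 7095 and 4670 fragments and was 2.15-fold higher (2.06 to 2.25). LTBP1, which holds latent TGF-beta in the matrix, had 1810, 6492 and 9183 and was 3.35-fold higher (3.18 to 3.53). The bone morphogenetic protein gene BMP7 went the other way, with 107, 22 and 4 fragments and a 5.20-fold lower value (3.27 to 8.65).

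Of 8 measured genes for vasoactive peptides and their receptors, 3 were higher and 1 was lower. The share of fragments of the whole list was nonetheless smaller in hypoxia, at 0.0592%, than in normoxia, at 0.0686%. ADM, for the vasodilator adrenomedullin, stood at 2.79 FPKM in normoxia, 26.0 in hypoxia and 39.2 with oxamate, and was 9.42-fold higher in fragments (8.03 to 11.1). ADM2, its relative, stood at 4.41, 2.18 and 3.82 FPKM and was 2.0-fold lower (1.72 to 2.33), so that the more abundant of the 2 genes per length differed between the libraries. The ADM2 call sits at the threshold and was lost under total-fragment and upper-quartile scaling. EDN1, for the vasoconstrictor endothelin, had 97, 274 and 674 fragments and was 2.64-fold higher (2.09 to 3.36).

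Cytokine genes went both ways, with 6 of 19 measured members higher and 3 lower. EPO, for erythropoietin, the hormone of red cell formation that Hep3B cells are known to make, had 21, 180 and 93 fragments and was 8.01-fold higher (5.08 to 13.3). THPO, for thrombopoietin, the liver hormone of platelet formation, had 499, 196 and 159 fragments and was 2.72-fold lower (2.3 to 3.23). LIF, an interleukin-6 family cytokine gene, had 246, 856 and 1222 fragments and was 3.25-fold higher (2.82 to 3.76). The chemokine genes split by member. CXCL12 had 669, 2210 and 5584 fragments and was 3.09-fold higher (2.83 to 3.37), CXCL8 was 2.45-fold higher (2.25 to 2.67), and CXCL2 had 71, 28 and 37 fragments and was 2.71-fold lower (1.73 to 4.37). Neighbouring genes of the interleukin-1 cluster on chromosome 2 were higher together. IL1B, for interleukin-1 beta, had 18, 302 and 188 fragments and was 15.7-fold higher (9.75 to 26.8), IL37 had 18, 77 and 31, and IL36G had 2, 69 and 55.

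Among 20 measured integrins and laminins 8 were higher and 0 lower. Their median log2 ratio was 0.67, and this list's share of fragments was 0.308% in normoxia and 0.563% in hypoxia. ITGAV, the alpha V subunit of vitronectin and fibronectin receptors, stood at 32.9 FPKM in normoxia, 128 in hypoxia and 105 with oxamate, and was 3.93-fold higher in fragments (3.83 to 4.03). ITGA2, the alpha subunit of a collagen receptor, stood at 6.72, 32 and 71.2 FPKM and was 4.81-fold higher (4.54 to 5.10). ITGA10, another collagen receptor subunit, had 2, 155 and 1335 fragments, with a ratio of 72.4 (19.7 to 603). The common beta 1 subunit gene ITGB1 had 19556, 39192 and 34892 fragments and stood at 1.87-fold higher (1.84 to 1.91), short of the rule here and past it under total-fragment scaling.

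Guidance molecules were more often higher than lower. Of 35 measured semaphorins, plexins, ephrins and Eph receptors 8 were higher and 2 lower, with a median log2 ratio of 0.57, and 7 of the 18 measured genes whose symbols begin with SEMA were higher. SEMA4B, a membrane semaphorin gene, had 614, 4627 and 3890 fragments, and was 7.04-fold higher (6.47 to 7.67). SEMA3G, for a secreted semaphorin, had 98, 882 and 434 and was 8.41-fold higher (6.82 to 10.5). SEMA5B had 0, 146 and 68 and was 45.5-fold higher against the floor of 3 fragments. The receptors differed among themselves. PLXNA2 had 717, 1656 and 1119 fragments and was 2.16-fold higher (1.98 to 2.36), though not without the length trend, and PLXNC1, for the receptor of SEMA7A, had 1018, 312 and 411 and was 3.49-fold lower (3.07 to 3.98).

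Matrix proteases and their inhibitors went both ways, 12 of 31 measured members being higher and 6 lower. Inhibitors of proteolysis were among the higher members. SERPINE2 had 17, 559 and 423 fragments and was 30.7-fold higher (19 to 53.1), and TIMP1, a metalloprotease inhibitor gene, had 78, 310 and 325 and was 3.71-fold higher (2.89 to 4.82). PLAU, which encodes the protease urokinase, had 119, 10 and 193 fragments and was 12.7-fold lower (6.69 to 27.2), though 31.1% of its exon bases overlap another gene. Among ADAM proteases both directions occurred, with ADAM28 at 31, 575 and 194 fragments and ADAM11 at 184, 15 and 9. ADAM23 had 53, 0 and 12 fragments and was 18.9-fold lower against the floor of 3 fragments.

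**Figure D2:**
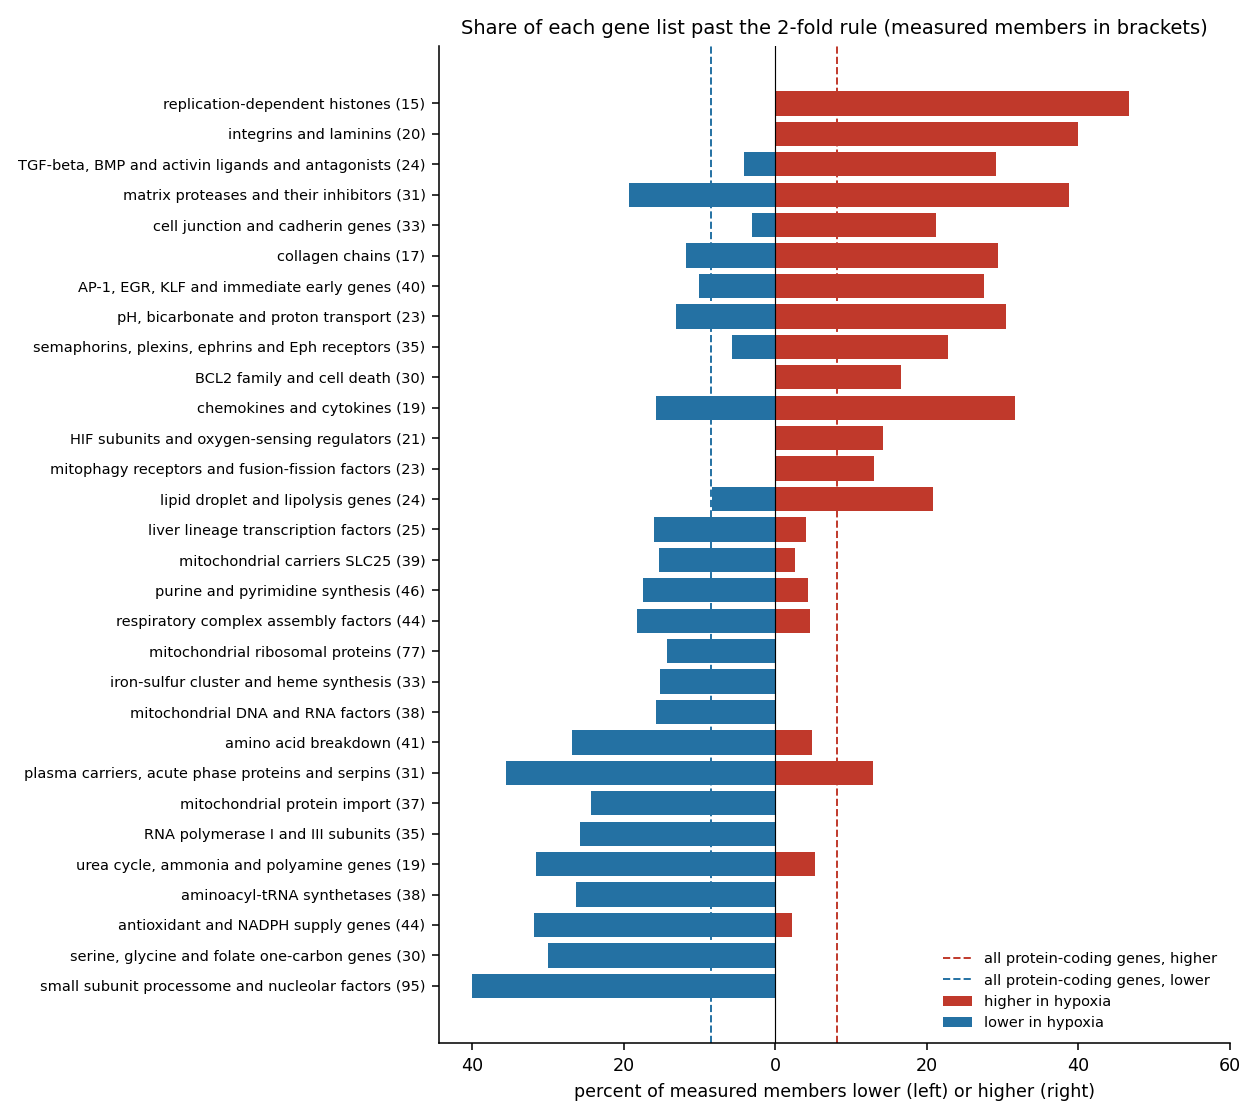
Bars show the percent of measured members of each gene list that were higher (right, red) or lower (left, blue) in hypoxia by the 2-fold rule, and the dashed lines mark the shares over all protein-coding genes, 8.1% and 8.53%. Drawn are 30 lists of at least 15 measured genes, those with the most positive and the most negative differences of higher minus lower share. The list of long noncoding RNAs was left out. They run from histones, integrins and growth factor ligands at the top to nucleolar, one-carbon and antioxidant genes at the bottom. Of 67 replication-dependent histone genes only 15 were measured in these libraries of polyadenylated RNA, 7 higher, 0 lower and 8 neither.

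Of 983 measured transcription factor genes with a family in the deposited annotation, 67 were higher (6.82%) and 58 lower (5.90%), beside 8.1% and 8.53% of all measured protein-coding genes. Of 34 bZIP genes 8 were higher and 3 lower. JUNB stood at 33.2, 171 and 124 FPKM in normoxia, hypoxia and oxamate, FOSL2 had 181, 769 and 1952 fragments and was 3.97-fold higher (3.37 to 4.69), and MAFK, for a small partner of other bZIP factors, had 1225, 2866 and 7692 and was 2.19-fold higher (2.04 to 2.34). The zinc finger factor gene KLF15, known as a regulator of gluconeogenic and amino acid metabolism, had 384, 50 and 60 fragments and was 8.22-fold lower (6.11 to 11.3). Of 9 genes with GATA fingers 0 were higher and 3 lower, namely GATA3, GATA4 and GATA6. GATA6, which acts in liver and endoderm, had 951, 451 and 309 fragments and was 2.26-fold lower (2.01 to 2.53), and this call and that of GATA4 (2.15-fold lower) were lost when the length trend was removed, that of GATA4 also under total-fragment scaling. Of 37 bHLH genes 2 were higher and 7 lower. MLXIPL, for the glucose-responsive factor ChREBP, had 2492, 580 and 486 fragments and was 4.60-fold lower (4.2 to 5.04). Among the C2H2 zinc finger genes named ZNF, 11 of 398 were higher (2.76%) and 6 lower (1.51%). Under total-fragment or upper-quartile scaling 18 were higher, and the list median of -0.074 changed sign, to 0.083 and 0.080.

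A few clock genes differed strongly. RORA, a nuclear receptor that activates BMAL1, had 64, 1019 and 3679 fragments, and was 14.9-fold higher (11.6 to 19.5). BHLHE40, a repressor of clock genes, stood at 25.9, 77.6 and 112 FPKM and was 3.03-fold higher (2.89 to 3.18). HLF, for a bZIP factor that gives clock output in the liver, had 837, 137 and 62 fragments and was 6.54-fold lower (5.45 to 7.89). These values lie beside 3 higher and 1 lower of 24 measured clock genes, with a median of -0.01 whose sign depends on the scaling.

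Genes were also sorted by the stem of their symbols, which gave 195 stems with at least 8 measured genes, and those of motile cilia came first. The axonemal dynein heavy chains, the motors of cilia and flagella, had 5 of 8 higher and 0 lower, the largest share of any stem. DNAH5 had 14, 465 and 217 fragments and was 31.0-fold higher (18.3 to 57.2), DNAH1 had 237, 739 and 454 and was 2.91-fold higher (2.51 to 3.39), and DNAH11 had 95, 289 and 515 and was 2.84-fold higher (2.25 to 3.62). Their levels per length were low, from 0.104 to 1.92 FPKM in hypoxia for the 5 higher members, with DNAH7 lowest and DNAH1 highest. A gene with few fragments in normoxia, such as DNAH5, counts as measured only through the hypoxia library, which favours higher calls. When protein-coding genes were sorted into equal bins by mean level, 29.4% were higher in the lowest bin and 11.8% in the next. The shares of the stems were not compared with those of genes at like levels. FOXJ1, the factor known to drive motile cilium genes, was better expressed than the dyneins, at 13.1, 34.2 and 29.9 FPKM, and was 2.62-fold higher (2.43 to 2.84). Other cilium genes were mixed in direction. MCIDAS and CCNO were lower in a run with their neighbour DHX29, at log2 ratios from -1.93 to -1.04. Among 12 measured genes with the stem IFT, 0 were higher and 0 lower. Of 16 measured genes with the stem CFAP, looked up after the dyneins, for cilia- and flagella-associated proteins, 5 were higher and 0 lower, CFAP69 and CFAP43 leading at 3.70-fold (2.39 to 5.93) and 3.62-fold (2.73 to 4.85). These genes are long, with a median exon length of 16129 bases for the dynein heavy chains, and their median log2 ratio was 1.52 before and 1.32 after removal of the length trend.

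Ribosome production in the nucleolus had the largest share of lower genes among the 65 lists. Ribosomal RNA is made by RNA polymerase I, and many proteins, among them the small subunit processome, fold, modify and cut it before export. Of 95 measured processome and nucleolar factors 38 were lower (40.0%) and 0 higher, with a median log2 ratio of -0.89, or -0.75 without the length trend. Under total-fragment scaling 24 of them were lower and 21 without the length trend, in each case with 0 higher. Together they took 0.890% of the normoxia library, 0.538% of the hypoxia library and 0.450% of the oxamate library. RRS1, a factor of large subunit assembly, had 676, 158 and 103 fragments and was 4.58-fold lower (3.84 to 5.48). RRP9, a protein of the U3 particle that guides the first cuts, had 1023, 295 and 189 and was 3.71-fold lower (3.26 to 4.24). NAT10, an RNA acetyltransferase, had 2331, 885 and 687 and was 2.82-fold lower (2.61 to 3.05). NCL, for the abundant nucleolar protein nucleolin, stood at 98.6, 40.4 and 29.9 FPKM and was 2.42-fold lower (2.36 to 2.47). Of 35 measured subunits of RNA polymerases I and III 9 were lower (5 under total-fragment scaling) and 0 higher, and POLR3G had 305, 99 and 31 fragments and was 3.30-fold lower (2.62 to 4.18).

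The proteins of the finished ribosome formed a separate list. Of 83 measured cytosolic ribosomal protein genes 0 were lower and 0 higher by the rule, and their median log2 ratio of -0.34 became -0.10 without the length trend. Their log2 ratios ran from -0.93 to 0.24. RPL3 stood at 294, 251 and 273 FPKM in normoxia, hypoxia and oxamate. The charging of transfer RNA lay nearer to the nucleolar genes, with 10 of 38 measured aminoacyl-tRNA synthetase genes lower (6 under total-fragment scaling), 0 higher and a median of -0.62. YARS1, for the tyrosine enzyme, had 4770, 1538 and 1422 fragments and was 3.32-fold lower (3.13 to 3.52). No test of the difference between these lists was made.

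Promoter sequences were set beside these ratios because 38 nucleolar genes were lower and 0 higher. RefSeq promoter windows (GRCh38.p14, 250 bases before to 50 after the start) matched 9652 of the measured protein-coding genes by symbol. The E-box CACGTG, the site of MYC and related factors, lay in 35.8% of the 81 nucleolar factor promoters, in 10.2% of all measured genes and in 7.43% of all 27305 promoters, both strands being searched. It lay in 13.3% of the promoters of lower genes and 9.55% of those of higher genes. An E-box also contains the HIF core ACGTG on each strand. The promoters of NAT10, of the processome gene IMP4 and of HSPD1, for a mitochondrial chaperonin, are shown as lower genes with an E-box. AKAP12 and PLOD2 are shown as higher genes with HIF cores, AKAP12 having an E-box as well. Each line gives the 250 bases before the start, 5′ to 3′ on the gene's strand, with capitals for the E-box, for the HIF cores ACGTG and GCGTG, and below for TATA and ETS letters, on either strand.
NAT10 promoter, chr11:34105379-34105628, plus strand: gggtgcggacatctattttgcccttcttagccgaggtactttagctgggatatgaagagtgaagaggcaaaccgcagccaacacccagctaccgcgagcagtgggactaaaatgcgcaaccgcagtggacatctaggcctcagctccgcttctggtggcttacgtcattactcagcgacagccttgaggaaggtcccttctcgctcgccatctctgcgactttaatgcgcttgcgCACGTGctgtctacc
IMP4 promoter, chr2:130342647-130342896, plus strand: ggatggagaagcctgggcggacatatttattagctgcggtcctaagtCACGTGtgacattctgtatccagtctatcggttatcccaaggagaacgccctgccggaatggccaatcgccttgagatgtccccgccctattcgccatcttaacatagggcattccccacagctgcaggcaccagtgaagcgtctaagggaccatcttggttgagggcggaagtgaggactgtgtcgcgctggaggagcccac
HSPD1 promoter, chr2:197500275-197500524, minus strand: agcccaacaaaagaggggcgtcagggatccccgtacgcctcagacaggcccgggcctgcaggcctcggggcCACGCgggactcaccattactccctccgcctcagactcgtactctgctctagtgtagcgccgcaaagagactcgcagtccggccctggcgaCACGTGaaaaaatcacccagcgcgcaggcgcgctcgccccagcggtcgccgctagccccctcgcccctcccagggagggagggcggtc
AKAP12 promoter, chr6:151239717-151239966, plus strand: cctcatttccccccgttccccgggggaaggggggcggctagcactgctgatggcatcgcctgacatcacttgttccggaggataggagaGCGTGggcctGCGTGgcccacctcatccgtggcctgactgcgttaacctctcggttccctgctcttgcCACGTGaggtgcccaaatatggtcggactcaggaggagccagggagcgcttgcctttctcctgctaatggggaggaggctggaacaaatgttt
PLOD2 promoter, chr3:146161185-146161434, minus strand: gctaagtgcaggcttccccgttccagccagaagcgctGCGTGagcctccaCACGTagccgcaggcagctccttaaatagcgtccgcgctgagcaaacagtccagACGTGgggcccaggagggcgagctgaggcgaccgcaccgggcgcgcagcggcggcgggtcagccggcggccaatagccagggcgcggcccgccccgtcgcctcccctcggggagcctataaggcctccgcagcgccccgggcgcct

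In these sequences the E-box began 15 bases before the start in NAT10, 203 in IMP4, 88 in HSPD1 and 93 in AKAP12. Thus a promoter with CACGTG belonged to AKAP12, which had 1272, 84907 and 125720 fragments in normoxia, hypoxia and oxamate, and to IMP4, which had 2414, 1015 and 797 and lay just under 2-fold lower without the length trend. Over all genes the HIF core, as ACGTG or GCGTG, was not more frequent in the promoters of higher genes. It was found in 53.1% of the promoters of higher genes, 65.5% of lower genes and 64.4% of genes that were neither, against 48.4% of all promoters. Of the 6139 measured genes with a core 6.34% were higher, and of the 3513 without a core 9.79%. A match is a string of letters and not a shown binding site, and sites farther away were not searched.

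Other motifs differed in frequency between called genes and the rest. The ETS motif CCGGAAGT, common in promoters of housekeeping genes, was in 10.5% of promoters of genes that were neither, in 3.77% of lower genes and in 1.09% of higher genes. Of the 894 measured genes with it 8 were higher and 30 lower. The TATA box letters TATAAA ran the other way, in 11.9% of higher, 6.53% of lower and 4.65% of genes that were neither, and 16.8% of the 517 genes that had them were higher. AP-1 letters TGACTCA were in 6.14% of higher and 2.54% of genes that were neither. The median GC content of the windows was 65% in higher, 65.7% in lower and 65.3% in genes that were neither. Their median counts of the pair CG were less alike, at 22, 25.5 and 27. The HIF core and the ETS motif contain CG and TATAAA does not, and the part of CG count in these frequencies was not tested. JUNB and MRPL3 are shown as examples of the letters, the former with TATAAA 31 bases before its start and the latter with CCGGAAGT 32 bases before its start. JUNB was a higher gene, and MRPL3 was among the 30 lower genes with the ETS motif.
JUNB promoter, chr19:12791236-12791485, plus strand: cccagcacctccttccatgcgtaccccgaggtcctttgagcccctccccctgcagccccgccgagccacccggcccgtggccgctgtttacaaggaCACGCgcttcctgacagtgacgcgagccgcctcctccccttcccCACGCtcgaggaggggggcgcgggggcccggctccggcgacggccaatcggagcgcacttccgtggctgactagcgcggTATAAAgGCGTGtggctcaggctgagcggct
MRPL3 promoter, chr3:131502972-131503221, minus strand: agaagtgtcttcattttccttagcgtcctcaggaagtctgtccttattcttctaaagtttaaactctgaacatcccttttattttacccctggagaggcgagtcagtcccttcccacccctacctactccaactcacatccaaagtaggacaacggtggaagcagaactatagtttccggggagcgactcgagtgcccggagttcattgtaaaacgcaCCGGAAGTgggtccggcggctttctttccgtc

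**Figure D3:**
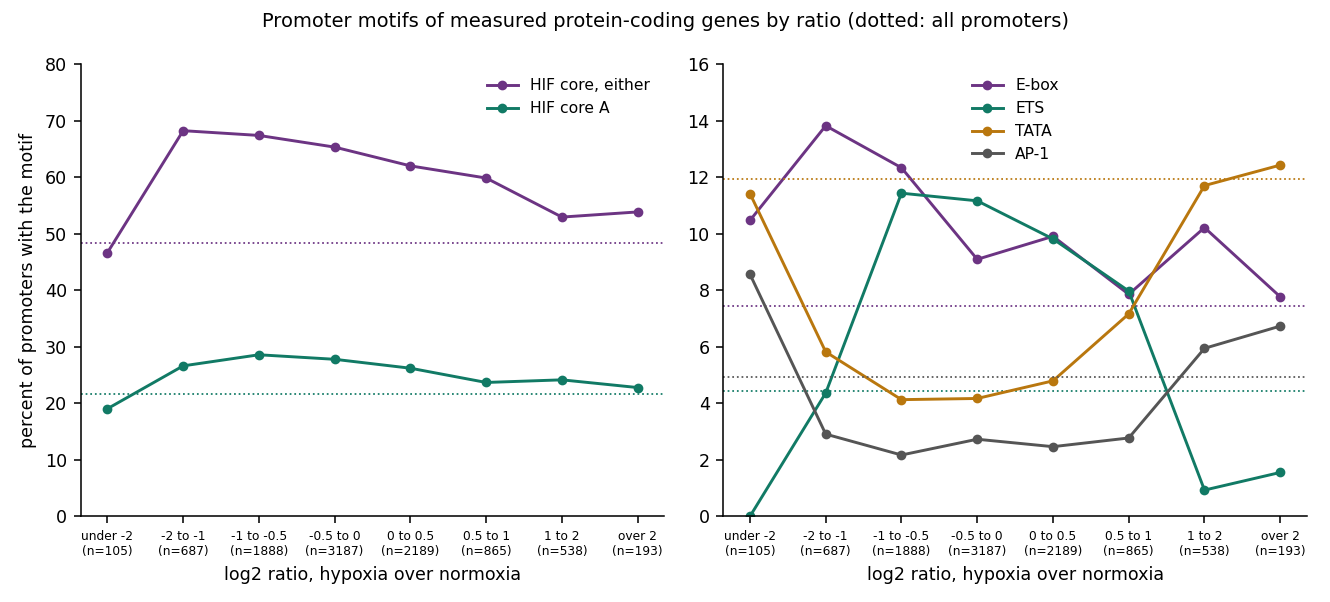
Lines give the percent of promoters that contain each motif in 8 bins of the log2 ratio of hypoxia over normoxia, with the number of promoters under each bin and dotted lines for all promoters. The ETS motif is most frequent between -1 and 0.5, TATA letters are most frequent in the bins above 1 and the bin below -2, AP-1 letters in the outermost bins, and the HIF core is most frequent between -2 and -0.5.

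Most measured genes for mitochondrial ribosomes and protein import passed the rule in neither direction. Of 77 measured mitochondrial ribosomal protein genes 11 were lower, 0 were higher and 66 neither, and 75 lay below the median of all measured genes, with a list median of -0.69. Under total-fragment scaling 6 were lower, and without the length trend 2, with a median of -0.47. MRPL3, a large subunit protein gene, had 4182, 1931 and 1263 fragments, and was 2.32-fold lower (2.20 to 2.45), and was under 2-fold once the length trend was removed. Genes for the import of proteins into mitochondria had 9 of 37 measured members lower, 0 higher, 28 neither and a median of -0.78, with 5 lower under total-fragment scaling and 4 without the length trend. TOMM40, the channel of the outer membrane, had 3938, 1923 and 1411 fragments and was 2.19-fold lower (2.07 to 2.32), a call lost under total-fragment scaling. HSPD1, which folds imported proteins, had 31796, 12185 and 8110 and was 2.79-fold lower (2.73 to 2.85). HSPE1, its partner, whose exon bases overlap another gene for 23.9%, had 2526, 1002 and 658 and was 2.70-fold lower (2.51 to 2.91).

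The factors that assemble respiratory complexes and the complexes' own subunits had like medians. Of 44 measured assembly factors 8 were lower (5 without the length trend) and 2 higher, with a median of -0.59, and 4 of the 8 measured genes with the stem NDUFAF, for complex I assembly, were lower and 0 higher. NDUFAF2 had 375, 105 and 78 fragments and was 3.82-fold lower (3.07 to 4.79), and NDUFAF4 had 622, 247 and 248 and was 2.69-fold lower (2.32 to 3.14). Of 38 measured complex I subunits 2 were lower (0 under total-fragment scaling) and 1 higher, with a median of -0.54. Subunits of complexes II, III and IV had 1 of 26 lower and 0 higher, with a median of -0.60, and those of ATP synthase 2 of 21 lower and 0 higher, with a median of -0.59. PPARGC1B, a coactivator that promotes mitochondrial gene expression, had 159, 9 and 7 fragments and was 18.9-fold lower (9.71 to 42.1).

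Among enzymes that supply carbon units, polyamines and reducing power the larger part of the measured genes passed the rule in neither direction. In serine, glycine and folate metabolism 9 of 30 measured genes were lower (6 under total-fragment scaling), 0 higher and 21 neither, with a median of -0.72. PSAT1, of serine synthesis, stood at 163, 37.7 and 63.0 FPKM in normoxia, hypoxia and oxamate and was 4.28-fold lower (4.09 to 4.48). SHMT2, which makes glycine from serine in mitochondria, had 8710, 4390 and 5350 fragments and was 2.12-fold lower (2.05 to 2.20), a call lost under total-fragment scaling. Among urea cycle, ammonia and polyamine genes 6 of 19 were lower, 1 higher and 12 neither, with a median of -0.87. CPS1, for the first enzyme of the urea cycle, had 223, 2 and 5 fragments and was 119-fold lower, with a wide interval (32.6 to 991). ASS1, for argininosuccinate synthase, had 3582, 495 and 440 and was 7.74-fold lower (7.05 to 8.52). SRM, for spermidine synthase, had 2996, 671 and 556 fragments and was 4.78-fold lower (4.39 to 5.20). ODC1, for ornithine decarboxylase, had 5234, 1358 and 4332, so that its oxamate value stood near the normoxia value, and was 4.12-fold lower in hypoxia (3.88 to 4.38). AMD1, for adenosylmethionine decarboxylase, and SMS, for spermine synthase, which also act in polyamine synthesis, were neither, at 1.22-fold and 1.21-fold lower. SMOX, for spermine oxidase, had 1027, 3029 and 3134 and was 2.76-fold higher (2.57 to 2.96).

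Of 44 measured antioxidant and NADPH supply genes 14 were lower, 1 higher and 29 neither, with a median of -0.88, or -0.58 without the length trend. TKT, for transketolase of the pentose phosphate pathway, had 6120, 2299 and 2319 and was 2.85-fold lower (2.71 to 2.99). GPX2, for a glutathione peroxidase, had 4312, 1196 and 2592 fragments and was 3.86-fold lower (3.62 to 4.12). The higher member was TXNIP, for an inhibitor of thioredoxin that responds to glucose, with 985, 4287 and 5046 fragments and a 4.07-fold higher value (3.79 to 4.36). Amino acid breakdown had 11 of 41 measured genes lower (7 under total-fragment scaling) and 2 higher. HAL, for histidine ammonia-lyase, had 712, 1788 and 371 and was 2.35-fold higher in hypoxia (2.15 to 2.56), with the oxamate value below both others.

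Levels of related genes were set side by side for 40 pairs. Both genes were measured in 32 of them. In 3 pairs the genes were called in opposite directions, in 21 exactly 1 gene was called, in 3 both were called the same way and in 13 neither. The lactate and pyruvate carriers formed one of the 3 opposite pairs: SLC16A1, for MCT1, stood at 15.6 FPKM in normoxia, 5.48 in hypoxia and 6.27 with oxamate, and SLC16A3, for MCT4, at 7.34, 27.2 and 48.6. SLC16A3 made up 32.1% of their summed FPKM in normoxia and 83.2% in hypoxia. The glucose transporters formed another, SLC2A1 (GLUT1) standing at 3.51, 10.1 and 25.9 FPKM and SLC2A2, for the GLUT2 of normal hepatocytes, at 1.73, 0.211 and 0.0116. The isocitrate dehydrogenases were level in normoxia, at 95.5 FPKM for cytosolic IDH1 and 97.3 for mitochondrial IDH2, and stood at 28.2 and 178 in hypoxia. IDH1 was 3.35-fold lower and IDH2 1.85-fold higher, the latter short of the rule here and past it under total-fragment scaling. The lysyl hydroxylases were alike in normoxia, PLOD1 at 27.2 and PLOD2 at 23.9 FPKM, and in hypoxia stood at 35.8 and 179. INSIG1 and INSIG2, which hold the sterol sensor in the endoplasmic reticulum, stood at 22.0 and 14 FPKM in normoxia and 8.12 and 25.4 in hypoxia.

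**Figure D4:**
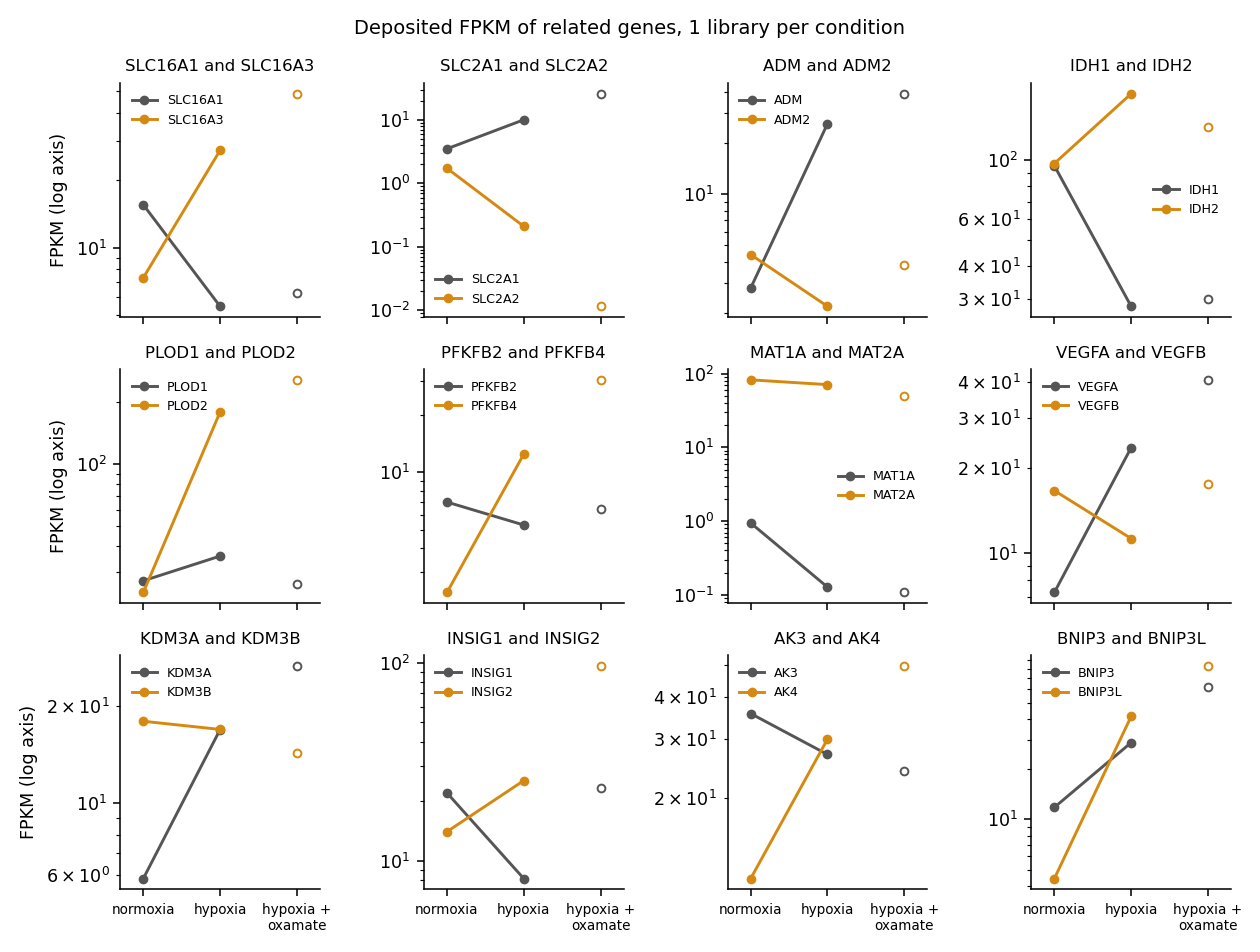
Each panel shows the deposited FPKM (log axis) of 2 related genes in the normoxia, hypoxia and hypoxia with oxamate libraries, 1 library each, with a line between normoxia and hypoxia and an open point for oxamate. The lines cross for SLC16A1 and SLC16A3, ADM and ADM2, VEGFA and VEGFB, INSIG1 and INSIG2 and others, and diverge for SLC2A1 and SLC2A2.

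Glycogen genes showed a mixed pattern with 8 of 33 measured members higher and 4 lower. GBE1, the branching enzyme, had 650, 2240 and 6101 fragments, and was 3.2-fold higher (2.95 to 3.52). PGM1, which links glucose 6-phosphate to glycogen, had 403, 1399 and 2249 and was 3.24-fold higher (2.90 to 3.63). Subunits that bring protein phosphatase 1 to glycogen differed among themselves: PPP1R3G had 152, 1899 and 1636 fragments and was 11.7-fold higher (9.89 to 13.9), while PPP1R3C had 176, 63 and 72 and was 2.99-fold lower (2.23 to 4.05). PCK2, the mitochondrial enzyme of gluconeogenesis, had 1714, 725 and 710 and was 2.53-fold lower (2.32 to 2.76). Of 23 measured genes for pH, bicarbonate and proton transport 7 were higher and 3 lower. CA9, a cell surface carbonic anhydrase, had 173, 5112 and 5823 fragments, where 38.5% of the exon bases overlap another gene, and CA2, a cytosolic one, had 328, 65 and 305 and was 5.4-fold lower (4.13 to 7.16).

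Liver output changed in composition. The list of plasma carriers, acute phase proteins and serpins had 4 of 31 measured members higher and 11 lower, and its share of all fragments was 3.09% in normoxia, 2.68% in hypoxia and 1.66% with oxamate. CP, for the copper ferroxidase ceruloplasmin, stood at 7.43, 141 and 150 FPKM and was 19.2-fold higher (18.2 to 20.3). A2M, for the protease inhibitor alpha-2-macroglobulin, stood at 15.1, 82.4 and 113 FPKM and was 5.49-fold higher (5.26 to 5.74). ORM1, for an acute phase glycoprotein, stood at 128, 17.9 and 3.30 FPKM and was 7.07-fold lower (6.39 to 7.85). RBP4, the retinol carrier, stood at 222, 51.0 and 28.0 FPKM and was 4.32-fold lower (4.11 to 4.53). Coagulation genes had 4 of 26 higher and 7 lower, and F12, for coagulation factor XII, had 66, 6 and 5 fragments and was 11.8-fold lower (5.13 to 33.2). Complement genes had 4 of 26 higher and 7 lower, or 8 and 3 without the length trend, and MASP1, for a protease of the lectin pathway, had 2277, 5600 and 21641 fragments and was 2.3-fold higher (2.19 to 2.41). Drug-metabolising enzymes likewise divided, 5 of 43 being higher and 8 lower. CYP2B6 had 710, 2643 and 1843 fragments and was 3.48-fold higher (3.20 to 3.78), and ADH4, an alcohol dehydrogenase gene, had 77, 7 and 14 and was 11.8-fold lower (5.45 to 30.3).

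Markers were read beside these groups. All 18 hepatocyte and hepatoma markers were measured, 6 being lower and 1 higher, and the summed level of the list was 39893, 28238 and 16582 CPM. Of 10 endothelial markers 2 were measured, both higher: ESAM had 64, 630 and 555 fragments and PECAM1 had 33, 230 and 499. Their list summed to 4.18, 31.4 and 43.4 CPM, KDR stood at 0 fragments in each library, and VWF and CDH5 at no more than 3. Of 12 blood cell markers 3 were measured, 1 higher and 1 lower, with log2 ratios from -2.74 to 2.52. Their list summed to 43.2, 34.9 and 62.3 CPM, and 6 were at 0 in both libraries compared. Of 11 stellate cell and fibroblast markers 4 were measured, 0 higher and 0 lower, with ACTA2 at 0 in each library. Of 9 markers of cholangiocytes and other epithelia 5 were measured, 0 higher and 1 lower, with sums of 1316, 842 and 1005 CPM. The lower one was SPP1, for the secreted phosphoprotein osteopontin, with 1193, 70 and 195 fragments and an 18.2-fold lower value (14.3 to 23.6). In bulk RNA fewer cells of a type and less RNA per cell cannot be told apart, and the part of any other cell in these results was not tested.

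Growth control genes went both ways. Of 34 measured G1 cyclins, kinases, inhibitors and RB and E2F genes 5 were higher and 4 lower (1 under total-fragment scaling). CDKN2B, for the kinase inhibitor p15, had 570, 2244 and 7822 fragments, and was 3.68-fold higher (3.35 to 4.04). CDKN1A, for p21, had 111, 350 and 415 and was 2.95-fold higher (2.37 to 3.68). CCND1, for cyclin D1, had 2332, 755 and 499 and was 3.31-fold lower (3.04 to 3.59), whereas CCND2 had 5, 61 and 18. Of 43 measured regulators of mTOR and AMPK 5 were higher and 6 lower (4 under total-fragment scaling, 2 without the length trend). DEPTOR, for an mTOR inhibitor, had 172, 791 and 1024 fragments and was 4.3-fold higher (3.64 to 5.10). SESN3, for a sestrin, also known to restrain mTOR, had 2426, 789 and 485 and was 3.29-fold lower (3.03 to 3.57), so that inhibitors of 1 pathway stood on both sides. Of 60 measured mitosis genes 0 were higher and 1 lower.

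Noncoding and antisense genes were counted apart from protein-coding genes. Of 1705 measured genes of other types 507 were higher (29.7%) and 84 lower (4.93%), with types taken from GENCODE 29. For antisense genes the counts were 136 higher and 20 lower of 456, and for lincRNA genes 104 and 20 of 314. These genes are at low levels, and among protein-coding genes the lowest of 10 equal bins by level also had the most higher calls, 29.4%, against 5.99% in the highest bin. Between the quartiles of level of the other types, 24.3% of other types and 17.2% of protein-coding genes were higher. Among the 856 other genes that shared no exon base with another gene 30.1% were higher. Genes of types other than protein-coding took 3.05% of the normoxia, 3.93% of the hypoxia and 4.40% of the oxamate library. Whether intronic or nuclear RNA adds to these values was not tested. LNCSRLR, an antisense gene on chromosome 3, had 4, 230 and 414 fragments and was 53.7-fold higher (20.7 to 199), and SNHG4, a snoRNA host gene, had 616, 140 and 71 and was 4.71-fold lower (3.91 to 5.70).

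**Figure D5:**
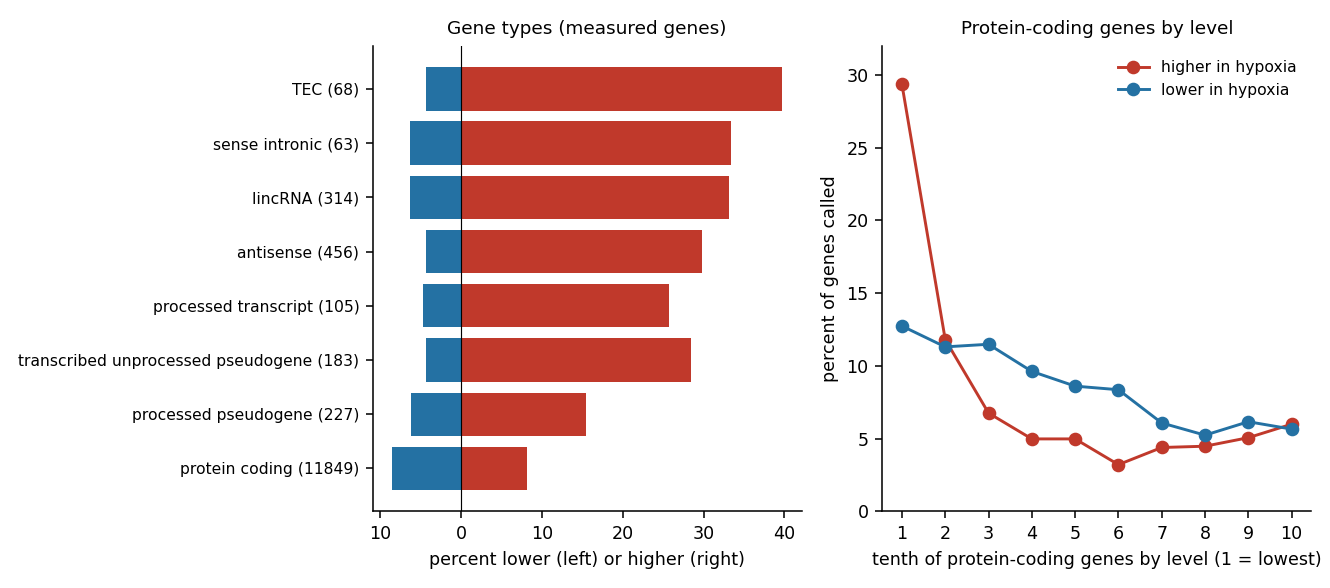
Left, the percent of measured genes of each type that were higher (right, red) or lower (left, blue) in hypoxia, with numbers of genes in brackets (2 repeated symbols counted). Right, the same percents for protein-coding genes in 10 bins by mean level: higher calls run from 29.4% in the lowest bin to 5.99% in the highest, and lower calls from 12.7% to 5.65%.

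Among noncoding genes with a known place in the response to low oxygen, MIR210HG, the host transcript of miR-210, had 42, 331 and 448 fragments, and was 7.37-fold higher (5.33 to 10.4). MIR17HG, the host of the miR-17 to 92 cluster and known as a MYC target, had 835, 405 and 637 fragments and was 2.21-fold lower (1.96 to 2.49), a call lost under total-fragment scaling. Mature miRNAs were not measured, and their sequences are given to show which products these hosts carry. The first product of MIR210HG and the first of MIR17HG are printed from RefSeq (GRCh38.p14), 5′ to 3′, with the seed (bases 2 to 8) in capitals.
hsa-miR-210-3p, chr11:568112-568133, minus strand: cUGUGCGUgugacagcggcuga
hsa-miR-17-5p, chr13:91350618-91350640, plus strand: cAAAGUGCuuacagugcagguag

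Neighbouring genes were sometimes called together. There were 32 runs of at least 3 consecutive measured protein-coding genes called in 1 direction, 18 of higher and 14 of lower genes, and the longest held 4. On chromosome 11, from 1828307 to 1892267 (hg38), SYT8 had 35, 591 and 789 fragments, TNNI2 2, 170 and 172, and LSP1 0, 89 and 221. On chromosome 12, from 70366290 to 70920738, PTPRB, for a receptor phosphatase of endothelium, had 27, 839 and 294 fragments and was 29-fold higher (19.8 to 44.3), next to KCNMB4 and PTPRR. On chromosome X, from 77910690 to 80809877, the copper transporter gene ATP7A was 4.83-fold higher (4.43 to 5.26) beside PGK1 at 2.76-fold (2.69 to 2.82), TAF9B and BRWD3. On chromosome 6, from 1312098 to 2245605, the forkhead genes FOXQ1 and FOXC1 and the fucose synthesis gene GMDS were lower, GMDS by 3.08-fold (2.83 to 3.36). How many such runs a chance order of genes would give was not tested.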

How the data were processed

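Polyadenylated RNA of Hep3B cells was sequenced, with 1 library per condition. Each deposited table lists 61533 genes, an exon length and 1 value per gene. The values the authors deposited are FPKM (fragments relative to exon length and library size). This unit was read from the values, since the header names the condition and no unit, and how the authors made the FPKM is not described in the labels. As tools, per the submitters' processing notes, edgeR 3.22.5, HISAT2 2.0.5, featureCounts 1.5.0-p3 and StringTie 1.3.3b were used, with the build hg38. Their roles and the strandedness of the kit are not stated. FPKM times length was a whole multiple of 1 step for 100% of values above 0 (tolerance 0.01), and these multiples served as fragments. They were scaled by a trimmed mean of M values (30% of ratios and 5% of levels trimmed) over 21987 genes, with factors of 0.943, 1.05 and 1.01 for normoxia, hypoxia and oxamate, and given as CPM. Log2 ratios carry a prior count of 0.5. Folds against 0 use a floor of 3 fragments, which is 0.116 CPM in normoxia and 0.108 in hypoxia. Fragments carry no molecular identifiers and may come from the same molecule. Without strand, a gene and its antisense partner cannot be told apart. Gene types came from GENCODE 29, where 58356 identifiers matched.

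The comparison, the size rule, 65 gene lists, 5 marker lists, 40 pairs and the motifs were chosen with earlier results of these data known. Transcription factor families were surveyed later, after the values had been seen. The naming rule took 15 protein-coding genes each way with the largest near interval bounds, the 2 highest and 2 lowest of each list, both genes of each pair, 6 noncoding genes each way, the 10 largest gains and losses, and members of runs. Other genes, among them those in the text outside this rule, were chosen after their values were seen. The length trend is a running median of log2 ratios over 301 genes ordered by exon length. Alternatives were other scalings, FPKM ratios, other minimums and folds, gene subsets and removal of the length trend. The procedure was tested on simulated data. Python 3.11.15, numpy 2.4.6, scipy 1.17.1, pandas 2.3.3 and matplotlib 3.10.9 were used.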

Additional observations from a re-analysis of the deposited data

How the results depend on the processing

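No paired analysis was possible because each condition had 1 library and the labels give no replicate numbers. The counts of 1468 higher and 1094 lower genes moved most with the limits of the size rule. A minimum of 10 fragments gave 3618 higher and 1773 lower, no minimum 5748 and 4313, a fold of 1.5 gave 2530 and 2970, and a fold of 3 gave 731 and 297. Requiring the whole interval to pass left 944 and 665, leaving out genes that share exon bases left 775 and 610, and protein-coding genes alone numbered 961 higher. Total-fragment scaling gave 1775 higher and 751 lower, upper-quartile scaling 1769 and 758, median-of-ratios scaling 1447 and 1131, FPKM with a pseudocount of 0.1 gave 1249 and 1033, and removal of the length trend 1675 and 766. Of 345 genes called and named by the rule, 320 kept their call under scaling by total fragments, 305 without the length trend and 293 with the whole interval past 2-fold. That 0 changed sign under any of these says little, since all were at least 2-fold apart. The whole-interval setting keeps the same ratios, and total-fragment scaling moved the median log2 ratio only from -0.11 to 0.04. The median log2 ratio of the endothelial markers, 2.94 over 2 genes, became -0.098 with no fragment minimum, as the low-count markers then entered. Counting intervals say nothing of variation between cultures, and genes near 50 fragments are the least precise.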
